A study of Homo sapiens with 6 samples.

Results

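The 9 genes described here encode the surface proteins and the first signaling enzymes and adaptors of the B-cell receptor: CD79A, CD79B, MS4A1, CD22, LYN, SYK, BTK, BLNK and PLCG2. They were chosen by name for their known roles, with earlier results of these data known. All 9 were found among the 23284 gene symbols of the expression tables. Poly(A)-selected RNA-Seq was run on GM12873, a human B-lymphoblastoid cell line immortalized with Epstein-Barr virus, as 3 control samples and 3 lyophilized samples. Control cells were washed in PBS and went straight into TRIzol, while lyophilized cells were freeze-dried in trehalose dissolved in PBS and kept dry for 2 weeks at room temperature before TRIzol was added. The labels pair each lyophilized sample with 1 control, and they do not say whether the pairs were separate cultures, so that the p-values below measure the spread between these samples, which may be technical. Freeze-drying, dry storage and the later addition of TRIzol went together in every lyophilized sample and cannot be told apart, and a single cell line was used.

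The B-cell receptor is a membrane immunoglobulin that binds antigen and a CD79A/CD79B heterodimer that carries the signal inward. When antigen clusters receptors, the Src-family kinase LYN phosphorylates paired tyrosines in the tails of CD79A and CD79B, the immunoreceptor tyrosine-based activation motif (ITAM), and the kinase SYK docks there and is activated. SYK then phosphorylates the adaptor BLNK, on which BTK and phospholipase PLCG2 meet, and the lipase opens the calcium and protein kinase C branches of the pathway. MS4A1 (CD20) and CD22 are B-cell surface proteins beside the receptor, and CD22 recruits phosphatases that dampen it.

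The ITAM is the sequence on which this pathway turns, and its coding stretches are shown because both receptor chains carry it. In CD79A (chromosome 19, 42381190 to 42385439 in the files, which use hg19) the stretch ran over the junction of coding exons, at chr19:42384800-42384805 in exon 4 and chr19:42384934-42384972 in exon 5, on the plus strand. In CD79B (chromosome 17, 62006098 to 62009704) it lay on the minus strand at chr17:62006794-62006799 in exon 5 and chr17:62006646-62006684 in exon 6. Both were read 5′ to 3′ from the GRCh37 genome with GENCODE models, and capitals mark the 2 tyrosine codons.
CD79A: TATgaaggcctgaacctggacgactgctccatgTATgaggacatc
CD79B: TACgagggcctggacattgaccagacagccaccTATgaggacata
The motif was searched for as a tyrosine followed 3 residues later by leucine or isoleucine, found again after 6 to 8 further residues. The search covered the coding sequence of the longest coding transcript of each gene, and other transcripts were not searched. The motif was present in CD79A and CD79B and not in the other 7 genes. Of 19522 human coding sequences picked in the same way, 564 (2.889%) held it.

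The tables held FPKM, a fragment count scaled to transcript length and to the mapped reads of the library, and since they held no read counts the absolute depth is unknown from them. Steps between low values put the depth at 1 to 1.66 times that of control 1 in the controls and at 1.53 to 1.90 times in the lyophilized samples. All 8 markers of the B lineage were above 1 FPKM in every sample, with a summed level of 4463 to 6347 FPKM in the controls and 4326 to 6124 FPKM in the lyophilized samples. The highest single value among these markers was 2864 FPKM. Such sums follow the highest markers and do not show whether each marker kept its level. None of the 6 T-cell, 4 natural killer or 5 erythroid and fibroblast markers reached 1 FPKM in any sample, with CD3G, KLRD1, HBB and DCN among those listed at 0 throughout. Of 7 myeloid markers only S100A9 passed 1 FPKM, and the summed myeloid level was 3.16 to 3.99 FPKM in the controls against 3.04 to 5.80 FPKM in the lyophilized samples. All 5 plasma cell markers were above 1 FPKM in every sample, with a summed level of 455 to 519 FPKM in the controls and 423 to 509 FPKM in the lyophilized samples.

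All 9 genes were well expressed in both groups. FPKM is scaled to transcript length, which allows a rough comparison of levels between genes. Effects of GC content or of the transcript model on these levels were not removed here. By the mean over 6 samples MS4A1 stood first at 324 FPKM and CD79A second at 310.0 FPKM, and 98.2% of the 11134 genes tested were lower than either. CD22 followed at 136 FPKM, CD79B at 112 FPKM, PLCG2 at 98.2 FPKM, BLNK at 77.3 FPKM, BTK at 69.9 FPKM, LYN at 63.5 FPKM and SYK at 33.5 FPKM. SYK, the lowest of the 9, was still above 80.9% of tested genes. In this order 3 steps were clear of the spread between samples in both groups: CD79A lay above CD22 (2.28 times by the means), PLCG2 above BLNK (1.27 times), and LYN above SYK (1.90 times). For the other 5 neighbours in the order the ranges of the samples overlapped in both groups. Within single samples CD22 still lay above CD79B in 6 of 6, and CD79B above PLCG2 and BLNK above BTK in 5 of 6 each.

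CD79A, a signaling chain of the receptor, was measured at 377, 243 and 350.3 FPKM in controls 1 to 3. The matching lyophilized samples gave 347, 237 and 306 FPKM. Each lyophilized sample lay below its own control, yet the groups overlapped widely, at 323 ± 71.3 FPKM in controls and 297 ± 55.7 FPKM after lyophilization (mean ± SD, n = 3). Pair 2 was the lowest in both groups by a margin larger than any change with treatment. CD79B, the partner chain, was measured at 135, 91.0 and 110.5 FPKM in the controls and, in the same order of pairs, at 129, 98.4 and 110.9 FPKM after lyophilization. Its means were almost level, at 112 ± 21.9 and 113 ± 15.4 FPKM (SD, n = 3), and its pairs moved in both directions.

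The chains pair with each other in the receptor, so their ratio within a sample was compared. The level of CD79A was 2.80, 2.67 and 3.17 times that of CD79B in the controls and 2.69, 2.40 and 2.76 times in the lyophilized samples. The lyophilized ratio was the smaller one in 3 of 3 pairs, with a mean log2 difference of −0.14 (SD of the pair differences 0.070), but the groups overlapped. An exact permutation test, two-sided, gave p = 0.3 where the smallest value that 3 against 3 samples allow is 0.1. The exact sign-flip test over pairs gave p = 0.25, which is the smallest it can give with 3 pairs.

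MS4A1, the CD20 antigen targeted by therapeutic antibodies, was measured at 333, 295 and 260.0 FPKM in the controls and at 413, 320.0 and 325 FPKM in the lyophilized samples. It was higher after lyophilization in every pair, but the lyophilized values of pairs 2 and 3 lay below control 1, so that the groups overlapped. The means were 296 ± 36.6 FPKM in controls and 353 ± 52.6 FPKM in lyophilized samples (SD, n = 3), a log2 fold change of 0.25 with an SE of 0.15 when the pairs were ignored. CD22, a sialic acid-binding inhibitory receptor, went the other way, from 175, 110.5 and 159 FPKM in the controls to 143, 98.55 and 128 FPKM in the lyophilized samples. It was lower in every pair, and the means were 148 ± 33.7 and 123 ± 22.5 FPKM (SD, n = 3), a log2 fold change of −0.26 with an SE of 0.21. As in the receptor chains, the values of pair 2 were the lowest of both groups.

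The level of MS4A1 was 1.90, 2.67 and 1.63 times that of CD22 in the controls and 2.90, 3.25 and 2.53 times in the lyophilized samples. The ratio was higher after lyophilization in 3 of 3 pairs, by 0.51 on average on the log2 scale (SD of the pair differences 0.20). The groups overlapped, since control 2 lay above lyophilized 3. The exact two-sided permutation test gave p = 0.2 and the exact sign-flip test over pairs p = 0.25. Neither could pass 0.05 in this design.

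**Figure D1:**
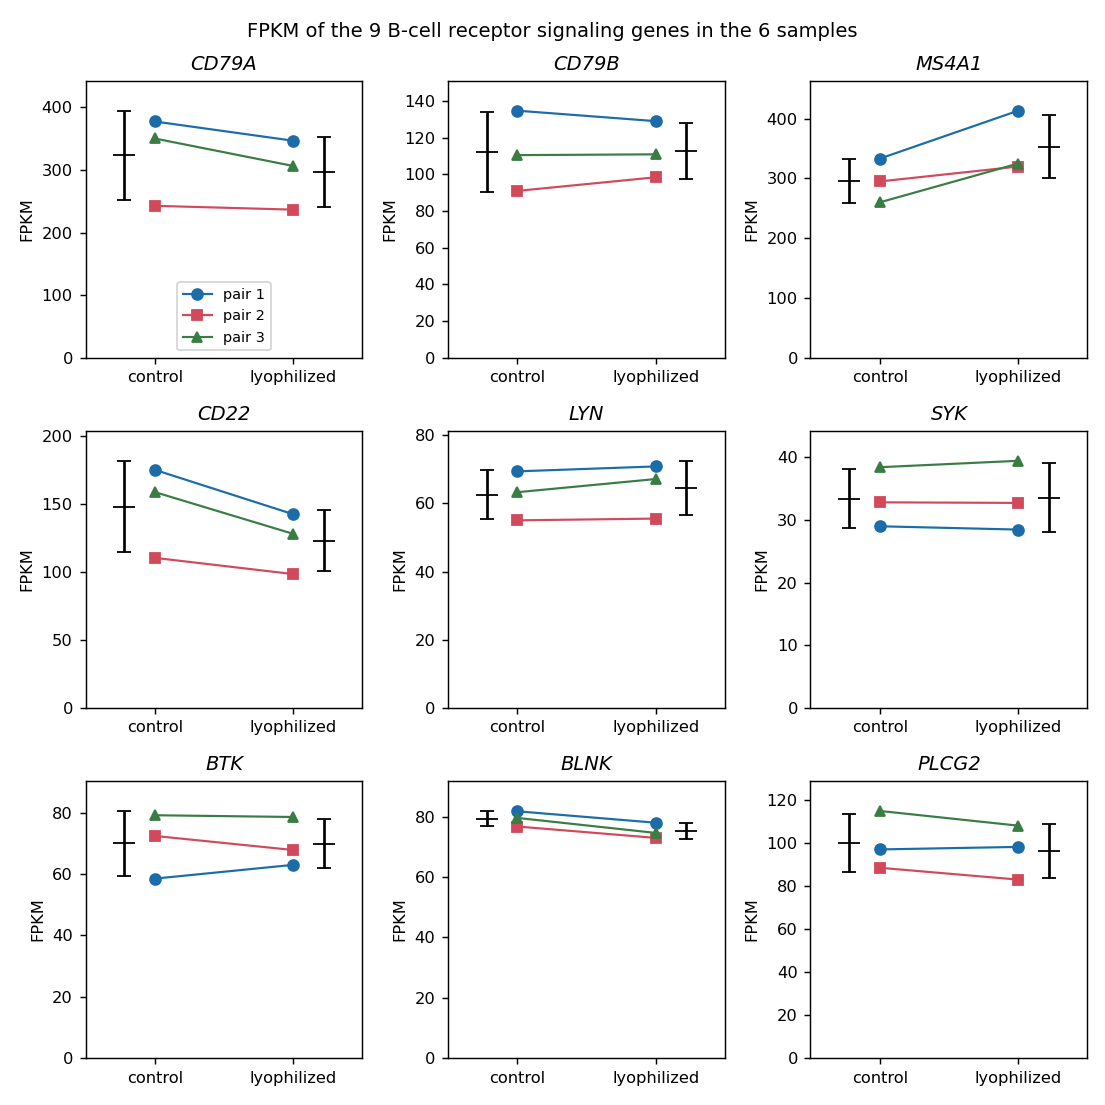
FPKM (vertical axes, from 0) of the 9 genes in control and lyophilized samples, with a line joining the samples of each pair and a black bar for the mean ± SD of 3 samples. Most lines run nearly flat and the pairs keep their order, while the MS4A1 lines slope up and the CD22 lines slope down in all 3 pairs.

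LYN, the Src-family kinase that phosphorylates the ITAMs and also the inhibitory tail of CD22, was measured at 69.4, 55.0 and 63.3 FPKM in controls 1 to 3 and at 70.9, 55.5 and 67.1 FPKM in the lyophilized samples. The gene lies on chromosome 8. Its samples were ranked alike in both groups, and the means were 62.6 ± 7.22 and 64.5 ± 7.99 FPKM (SD, n = 3). SYK, the kinase that docks on the phosphorylated ITAM (chromosome 9, 93564012 to 93660842), was measured at 29.0, 32.8 and 38.4 FPKM in the controls and at 28.5, 32.7 and 39.5 FPKM in the lyophilized samples. Here pair 3 was the highest and pair 1 the lowest, whereas pair 1 was the highest for both receptor chains. BTK, the kinase mutated in X-linked agammaglobulinemia (chromosome X, 100604435 to 100641212), was measured at 58.5, 72.4 and 79.1 FPKM in controls 1 to 3 and at 62.95, 67.8 and 78.6 FPKM in the lyophilized samples.

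For SYK and BTK the difference between groups was close to nothing. SYK averaged 33.4 ± 4.75 FPKM in controls and 33.6 ± 5.54 FPKM after lyophilization, and BTK 70.0 ± 10.5 and 69.8 ± 7.99 FPKM (SD, n = 3). The SYK to LYN ratio was 0.418, 0.597 and 0.608 in controls 1 to 3, beside 0.402, 0.590 and 0.588 after lyophilization. Every pair was lower by a small amount, with a mean log2 difference of −0.040 (SD 0.020), far less than the gap between pair 1 and the other two pairs. The exact permutation test gave p = 0.5 and the exact sign-flip test p = 0.25. With control 2, control 3 or lyophilized 1 left out, the difference of group means turned to 0.041, 0.054 and 0.14. Leaving out 1 sample leaves its partner unmatched, so these values also hold the gap between pair 1 and the other pairs.

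BLNK, the adaptor that SYK phosphorylates (chromosome 10, 97951455 to 98031333), had the tightest values of the 9. It was measured at 81.8, 76.7 and 79.6 FPKM in the controls and at 78.0, 73.0 and 74.6 FPKM in the lyophilized samples. Highest and lowest control differed by 1.07 times for BLNK against 1.26 to 1.59 times for the other 8 genes, and all 3 pairs were slightly lower after lyophilization. PLCG2, the phospholipase that releases inositol trisphosphate (chromosome 16, 81812899 to 81991899), was measured at 96.9, 88.4 and 115 FPKM in controls 1 to 3 and at 98.1, 82.9 and 108 FPKM in the lyophilized samples. Its means were 100.1 ± 13.5 and 96.3 ± 12.6 FPKM (SD, n = 3), and pair 1 was not lower.

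The plot of ratios sets these ratios of RNA levels beside each other.

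**Figure D2:**
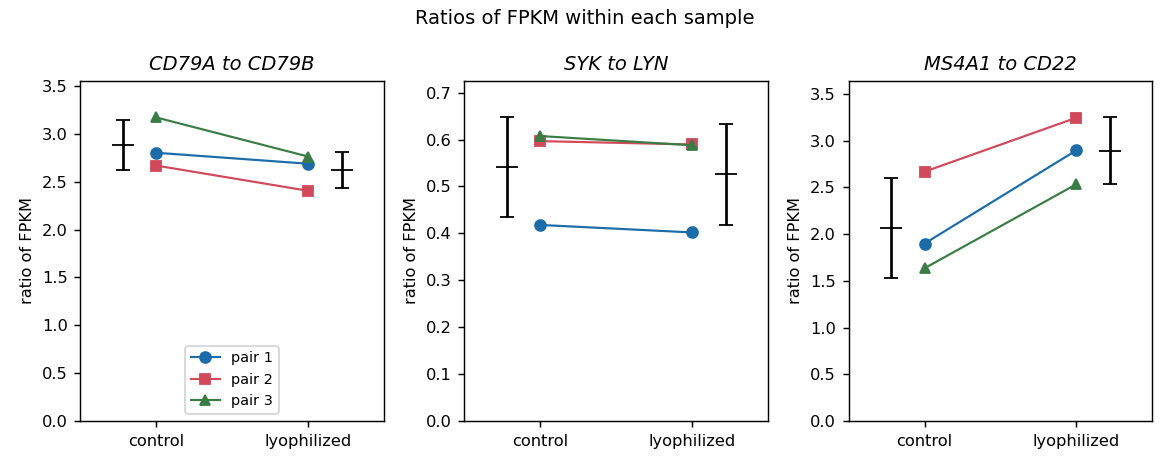
Ratio of FPKM within each sample (vertical axes, from 0) for CD79A to CD79B, SYK to LYN and MS4A1 to CD22, with lines joining pairs and black bars for the mean ± SD of 3 samples. The MS4A1 to CD22 ratio averaged 2.07 in controls and 2.89 in lyophilized samples, and the other two ratios moved little beside the spread between pairs.

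None of the 9 genes passed an adjusted p of 0.05 between lyophilized and control samples when the pairs were ignored. The test was limma on log2(FPKM + 0.1) with Benjamini-Hochberg adjustment over 11134 genes, and fold changes are on that scale. None of the 9 had an unadjusted p under 0.05 in that test either, beside 1573 of the 11134 tested genes. Over all genes 64 passed (0.575%), 62 of them lower after lyophilization. Adjusted p-values of the 9 genes ran from 0.48 for MS4A1 to 0.999 for BTK. The 95% intervals covered fold changes between 0.598 and 1.17 for CD22 and between 0.930 and 1.52 for MS4A1. For BLNK the interval was the narrowest, from 0.808 to 1.11, so that smaller shifts than these could not be seen without the pairing. Fewer cells of a type and less RNA per cell cannot be told apart in such bulk samples.

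The samples of a pair deviated together from their group means. For 8 of the 9 genes, all but MS4A1, the 3 pairs had the same rank order in both groups, and 47.6% of all tested genes did so. In none of the 9 genes were the groups free of overlap, against 22.2% of all tested genes. All 3 pairs moved the same way for 5 genes (CD79A, CD22 and BLNK lower, MS4A1 and LYN higher), beside 62.2% of all tested genes.

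With the pair as a block in the limma fit, 2 of the 9 genes passed, while 30.7% of all tested genes did (1657 lower and 1766 higher). MS4A1 rose by 0.25 on the log2 scale, or 1.19-fold (SE 0.050, 95% interval of the fold 1.10 to 1.29, adjusted p = 0.0069), and was higher in 3 of 3 pairs. CD22 fell to 0.836-fold (log2 fold change −0.26, SE 0.049, 95% interval of the fold 0.775 to 0.902, adjusted p = 0.0056) and was lower in 3 of 3 pairs. Without pair 3 the adjusted p of CD22 was 0.052 and that of MS4A1 0.047. CD79A had a log2 fold change of −0.12 (SE 0.045, adjusted p = 0.073). It passed with quantile normalization (adjusted p = 0.013) and without pair 2 (adjusted p = 0.0064).

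The remaining 6 genes were far from the threshold in the blocked fit. Their log2 fold changes were 0.02 for CD79B, 0.04 for LYN, 0.00 for SYK, 0.00 for BTK, −0.08 for BLNK and −0.05 for PLCG2, with adjusted p-values from 0.23 to 0.99. Those of CD79B, SYK and BTK changed sign under median-ratio scaling. Their 95% intervals all lay between fold changes of 0.879, the lower bound for BLNK, and 1.11, the upper bound for LYN.

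Changes across the whole table went with base composition. Over the 10745 tested genes with a matched transcript, the log2 fold change fell as the GC content of the longest coding transcript rose, with a Spearman correlation across genes of −0.76 (−0.73, −0.42 and −0.77 in pairs 1 to 3), a description in which genes are not independent replicates. Among the 9 genes BLNK and CD79B went against this trend. MS4A1 had the lowest GC content at 37.8% and CD22 one of the higher ones at 55.1%. CD79A and CD79B stood at 60.1% and 59.9%, SYK at 49.9%, PLCG2 and BTK at 47.2%, LYN at 45.6% and BLNK at 41.9%. The contrast between the 2 genes that passed is shown by a coding window of 150 bases from each, picked as the window within 1 exon with the GC content nearest to that of the transcript, with G and C in capitals. The MS4A1 window (gene at chromosome 11, 60223282 to 60238225) lies in exon 8 at chr11:60235754-60235903, plus strand, GRCh37, and is 38% GC. The CD22 window (gene at chromosome 19, 35820072 to 35838264) lies in exon 4 at chr19:35826983-35827132, plus strand, and is 55.3% GC.
MS4A1: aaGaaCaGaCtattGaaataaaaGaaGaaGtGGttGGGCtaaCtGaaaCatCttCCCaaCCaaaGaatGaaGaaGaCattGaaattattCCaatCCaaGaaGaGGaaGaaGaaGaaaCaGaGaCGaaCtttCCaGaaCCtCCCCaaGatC
CD22: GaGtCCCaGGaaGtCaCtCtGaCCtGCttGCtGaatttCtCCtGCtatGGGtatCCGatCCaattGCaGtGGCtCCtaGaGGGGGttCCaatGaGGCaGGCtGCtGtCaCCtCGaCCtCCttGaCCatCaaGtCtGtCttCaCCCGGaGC

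**Figure D3:**
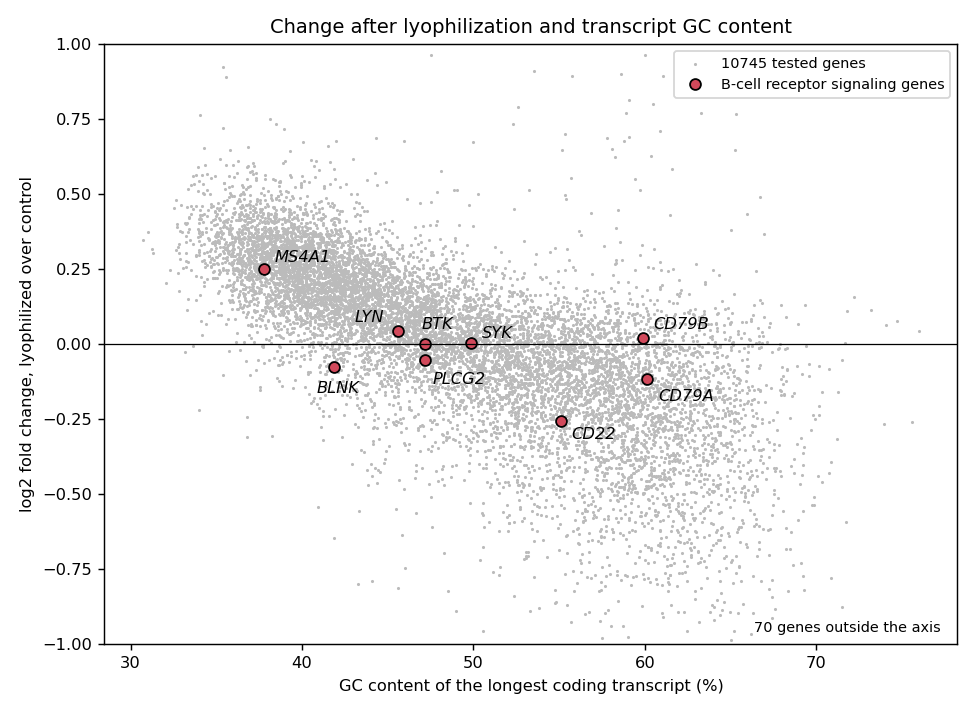
Log2 fold change of lyophilized over control (vertical axis) against the GC content in percent of the longest coding transcript (horizontal axis), with 10745 tested genes in grey, the 9 genes in red and 70 genes outside the axis. The grey cloud slopes downward, MS4A1 at 37.8% GC lies within its upper left part, and CD79B at 59.9% GC and BLNK at 41.9% GC lie near its upper and lower edges.

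When the trend with GC content was removed from each sample before the blocked limma fit, a different pair of the 9 genes passed, beside 15.8% of the 10745 genes. MS4A1 then had a log2 fold change of −0.03 (adjusted p = 0.67) and CD22 one of −0.11 (adjusted p = 0.090). CD79B was higher than genes of like GC content by 0.25 on the log2 scale (SE 0.038, adjusted p = 0.0053), and BLNK lower by 0.25 (log2 fold change −0.25, SE 0.048, adjusted p = 0.012). CD79A turned from −0.12 to 0.12 (adjusted p = 0.072). With transcript length removed as well, BLNK alone passed (log2 fold change −0.24, adjusted p = 0.018) beside 7.9% of genes, and CD79B was at 0.09 (adjusted p = 0.20). LYN, SYK, BTK and PLCG2 did not pass in any fit. The longest GENCODE transcript of BLNK extends past the gene's limits in the files, so its GC content and length are less certain than those of the others.

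**Figure D4:**
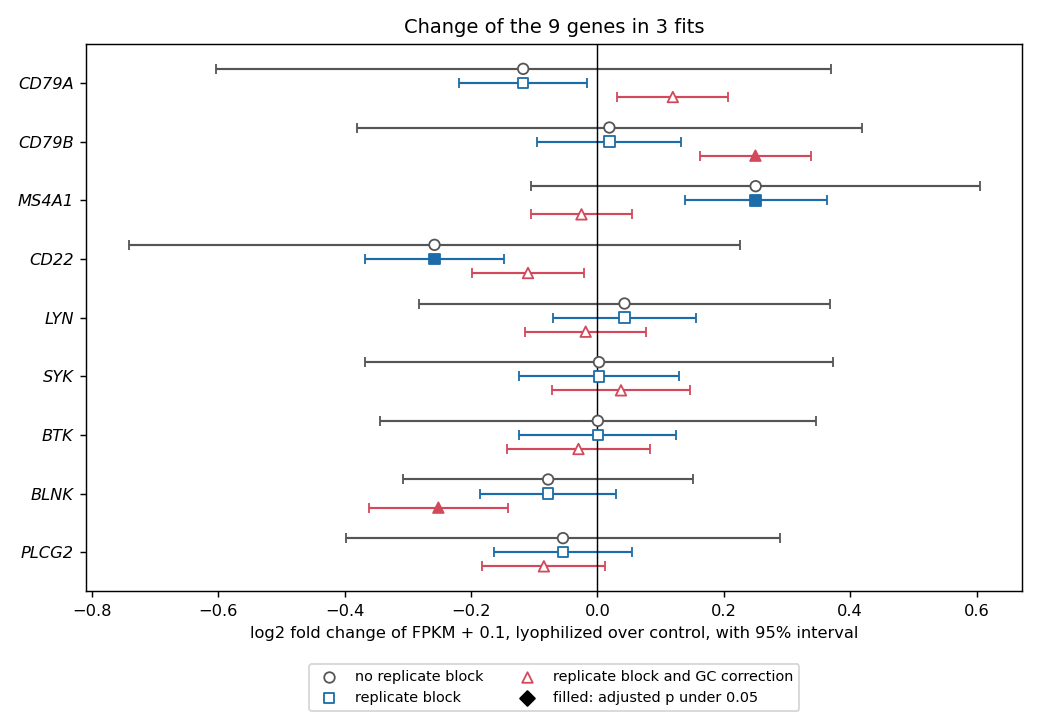
Log2 fold change of FPKM + 0.1, lyophilized over control (horizontal axis), with 95% intervals for the 9 genes in the limma fit without pairs (grey circles), with the pair as a block (blue squares), and with the block and a GC correction (red triangles). Filled symbols have an adjusted p under 0.05: MS4A1 and CD22 with the block, CD79B and BLNK with the block and the GC correction.

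Around these genes, 93 other genes of the pathway were listed in 11 groups by role, and 82 of them had enough signal to be tested. Without the block none passed in limma after Benjamini-Hochberg adjustment. Of the 82, 19 had an unadjusted p under 0.05, beside 1573 of all 11134 tested genes. With the block 35 of 82 passed (42.7%, beside 30.7% of all tested genes), 22 lower and 13 higher. With the GC correction added 10 passed (12.2%, beside 15.8%), 7 lower and 3 higher, so that the share lay above that of all genes in one fit and below it in the other. The median log2 fold change of the 82 genes was −0.02 beside 0.04 over all tested genes, and that of the 9 genes was 0.00. Transcripts that were lower in the blocked fit had a median GC content of 58.6%, and those that were higher one of 38.9%. The counts below are from the blocked fit, and no gene named from it was called in the fit without the block.

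The coreceptor complex lowers the threshold for receptor signaling. Its tetraspanin CD81 fell by 0.30 on the log2 scale (adjusted p = 0.0025). CR2, the complement receptor of the complex, had a log2 fold change of −0.08 (adjusted p = 0.33). Of 4 inhibitory receptors tested, SIGLEC10 passed, at 3.36, 2.86 and 3.31 FPKM in controls and 2.30, 2.31 and 2.45 FPKM in lyophilized samples, without overlap.

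Among 11 phosphatases and other brakes, 4 fell and 3 rose. DOK3, an adaptor that restrains calcium signaling, fell by 0.44 on the log2 scale, and INPP5D, the SHIP1 lipid phosphatase, fell by 0.34. PTPN11, the SHP2 phosphatase, and PTPN22, a phosphatase of Src-family kinases, rose by 0.37 and 0.34. DOK3 and INPP5D also passed with the GC correction, at −0.19 and −0.18, but not with transcript length removed as well.

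The Src-family kinases beside LYN were mostly expressed. BLK and SRC fell in the blocked fit (log2 fold changes −0.22 and −0.35), and no kinase of this list passed with a rise. LCK, better known from T cells, was at 48.4 to 61.8 FPKM with a log2 fold change of −0.02, FGR was at 17.4 to 32.2 FPKM with −0.05, and the BTK relative TEC was at 8.33 to 11.4 FPKM with 0.20. None of these 3 passed in the blocked fit. FYN stayed at or under 1.14 FPKM, and ZAP70, the T-cell counterpart of SYK, stayed at or under 0.279 FPKM. Both were too low to be tested.

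Of 10 adaptors tested, SH3BP2, which binds SYK, fell by 0.60 and NCK1 rose by 0.32 on the log2 scale. The calcium and protein kinase C group had 5 genes lower and 2 higher of 12. ITPR3, an inositol trisphosphate receptor, was measured at 18.7, 13.7 and 16.0 FPKM in the controls and at 11.6, 9.90 and 10.6 FPKM in the lyophilized samples, without overlap. It fell by 0.58, the diacylglycerol kinase DGKZ fell by 0.51, and ITPR2, another receptor of that family, rose by 0.37. PLCG1, the sister lipase of PLCG2, was measured at 24.2, 20.4 and 24.3 FPKM in controls 1 to 3 and at 17.9, 17.4 and 18.7 FPKM in the lyophilized samples. It fell by 0.35 on the log2 scale with the block (adjusted p = 0.0065) and by 0.20 with the GC correction (adjusted p = 0.039), but with transcript length removed as well it was at 0.01 (adjusted p = 0.93). PLCG2 did not pass in any of these fits. The difference between the 2 lipases was not tested.

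In the phosphoinositide 3-kinase group 1 of 8 genes fell and 4 rose. PIK3CD, the catalytic subunit typical of leukocytes, fell by 0.41 on the log2 scale, while the catalytic subunits PIK3CA and PIK3CB and the regulatory subunit PIK3R1 rose by 0.42, 0.38 and 0.37. VAV2, an exchange factor for RAC, and RAC2, the leukocyte RAC, fell by 0.30 and 0.13. In the group that leads to NF-kappaB, the protease MALT1 and the kinase MAP3K7 rose by 0.22 and 0.26. NRAS was the 1 gene of 9 in the RAS and MAPK group that passed, with a rise of 0.38. The transcription factors NFATC1 and NFATC2 fell by 0.57 and 0.46, and none of the 3 calcineurin subunits passed.

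**Figure D5:**
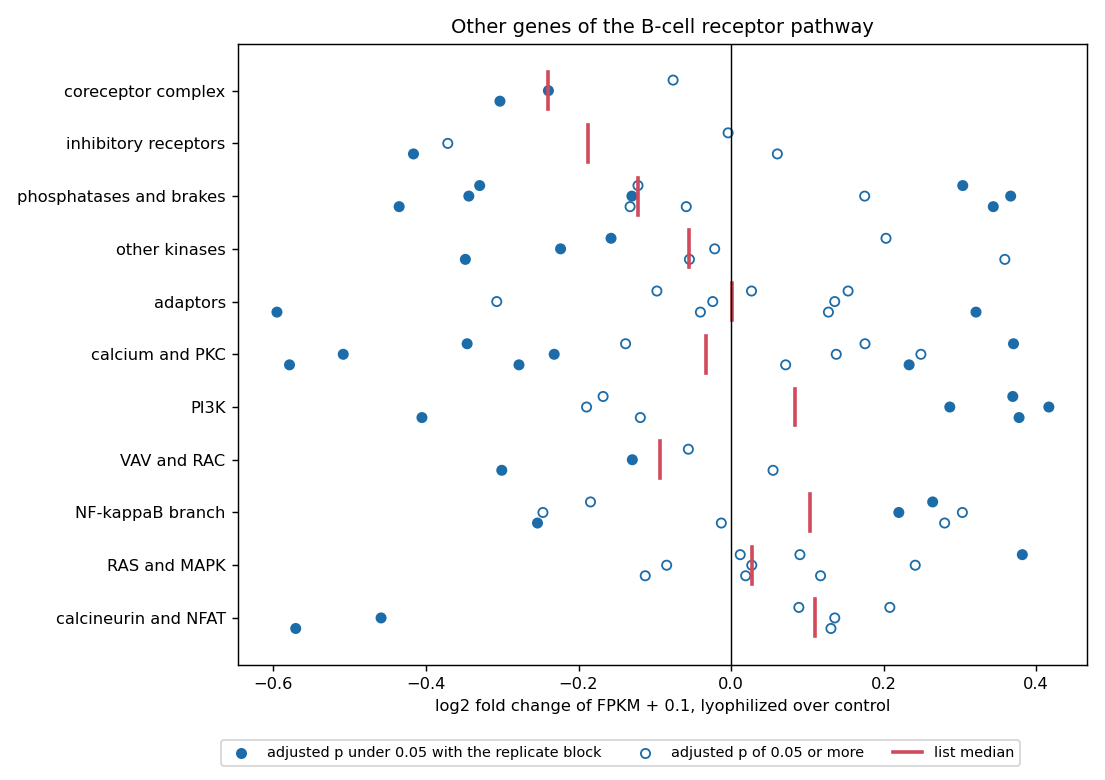
Log2 fold change of FPKM + 0.1, lyophilized over control (horizontal axis), for 82 other pathway genes in 11 groups (rows), filled where the blocked fit gave an adjusted p under 0.05, with a red bar at each group's median. Calls on both sides of 0 appear in 5 of the 11 groups, and no group lies wholly on one side among all its tested genes except the coreceptor complex.

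With the GC correction the 7 pathway genes that were lower were DOK3, INPP5D, SH3BP2, PLCG1, ITPR3, PIK3CD and NFATC1. The 3 that were higher were LCK (0.16, adjusted p = 0.037), HRAS (0.35, adjusted p = 0.0046) and the MAP kinase kinase MAP2K2 (0.21, adjusted p = 0.015), of which HRAS and MAP2K2 were named after their values were seen. With transcript length removed as well, 3 pathway genes passed, SH3BP2 (−0.33, adjusted p = 0.017) and CD81 (−0.22, adjusted p = 0.020) lower and the kinase AKT2, also named after its value was seen, higher (0.19, adjusted p = 0.034). The other 9 calls of the GC-corrected fit were lost, and ITPR3 went from −0.36 to 0.05.

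For each of the 9 genes, the tested gene with the most similar profile was the one with the smallest root mean square difference of centred log2 values over the 6 samples. CD79A was closest to CD99, CD79B to VKORC1, MS4A1 to PPIL3, CD22 to SREBF2 and LYN to LOC493754. SYK was closest to PPFIBP2, BTK to ZNF234, BLNK to PPP2R1A and PLCG2 to RGMB. These distances were 0.018 to 0.041 on the log2 scale, against a spread of 0.055 to 0.29 of the genes themselves. None of these nearest genes was itself one of the 9.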

How the data were processed

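Reads were 75 bp single-end from TruSeq v2 libraries, a kit that does not keep strand. The authors aligned them to hg19 with TopHat 2.0.7, keeping uniquely mapped reads, and deposited FPKM values computed with Cufflinks, 1 table per sample. The version of Cufflinks and its annotation are not given in the sources used here. No read counts were used, so no counting interval was computed.

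From 24934 records, 23284 symbols were kept by the highest mean FPKM. Small RNAs without poly(A) were left out, and the test, limma (version 3.58.1, under R 4.3.3), was run on the 11134 genes whose mean FPKM exceeded 1 in either group (mean-variance trend, Benjamini-Hochberg adjustment, threshold 0.05) on log2(FPKM + 0.1). Condition was the only term, as the study's methods name no block. The labels give the pairing. Samples of a pair deviated together from their group means (r = 0.72, 0.60 and 0.48 over all tested genes, 0.96, 0.92 and 0.93 over the 9 genes), so values with the pair as a block are given beside the results. GC content came from the longest coding GENCODE transcript on GRCh37 (10745 of 11134 genes), and its trend was removed by loess with a span of 0.3. Ratios were compared by exact tests on log2 values.

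All 9 genes are described. Of the pathway genes, at most the 4 with the largest change among those past the threshold, with or without the block, were named per list, together with CR2, CD81, BLK, FYN, FGR, LCK, TEC, ZAP70 and PLCG1 whatever their values. Some listed genes stay in the counts but are not reported by name here. The members, lists and tests were chosen with earlier results of these data known. On simulated data with 11134 genes the fit of lyophilized against control recovered 11.9% of changes of 0.5, 55.2% of changes of 1 and 92.4% of changes of 2 on the log2 scale without the block. There 67, 67 and 66 genes were changed, the noise was normal and independent between genes, and no trend with GC content was planted. The recovery in the real data may therefore differ.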

Additional observations from a re-analysis of the deposited data

How the results depend on the processing

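Without the pair as a block, 0 of the 9 genes and 0 of the 82 pathway genes passed in each of 16 alternatives (other pseudocounts, filters, scalings, no trend, summed records, GC correction, 1 sample left out). In 8 of these 16 (no filter, GC correction, each sample left out) limma called no gene of the whole table, so they say nothing about these genes. With the replicate block 2 of 9 and 35 pathway genes passed. The counts were 2 and 10 with the GC correction, 1 and 3 with GC and length, 2 and 38 with median-ratio scaling, 3 and 40 with quantile normalization (both scalings with the block were chosen after seeing the data), and 2 and 13, 3 and 54, and 1 and 11 without pair 1, 2 and 3. Over all tested genes the share passing moved too, from 30.7% with the block to 15.8% with the GC correction, 7.9% with GC and length, 32.1% and 31.5% with the 2 scalings, and 19.7%, 48.1% and 11.4% without pair 1, 2 and 3. The cause of these differences was not tested.

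The median log2 fold change of the 9 genes, 0.00059 as reported, was −0.025 with the GC correction with or without the block, −0.021 with GC and length, −0.019 with median-ratio scaling and −0.042 with quantile normalization, each with or without the block. It was −0.052, −0.028 and −0.015 in the block without pair 1, 2 and 3, and −0.10 to 0.049 with 1 sample left out.

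Signs turned as follows, all with adjusted p above 0.05. With the GC correction, with or without the block, CD79A was at 0.12, MS4A1 at −0.025, LYN at −0.019 and BTK at −0.030. With GC and length MS4A1 was at −0.020 and BTK at −0.033. Median-ratio scaling gave BTK −0.019, SYK −0.017 and CD79B −0.00042, quantile normalization −0.042, −0.017 and −0.028, with or without the block. Upper-quartile scaling gave BTK −0.011 and SYK −0.0087. In the block, BTK was at −0.052 without pair 1, CD79B at −0.028 without pair 2 and SYK at −0.015 without pair 3. With 1 sample left out, BTK ran from −0.12 to 0.095, SYK from −0.12 to 0.11, CD79A from −0.31 to 0.036, CD79B from −0.12 to 0.16, LYN from −0.047 to 0.15, PLCG2 from −0.14 to 0.049, and the SYK to LYN log2 ratio from −0.22 to 0.14. Since leaving out 1 sample left its partner unmatched, the values with 1 sample left out also hold the gaps between pairs. CD22 and BLNK kept their direction in all 24 alternatives. The log2 ratios of CD79A to CD79B (−0.19 to −0.065) and MS4A1 to CD22 (0.35 to 0.71) kept theirs in all 9 alternatives run for ratios. These were a pseudocount of 0.1, summed records, the sign-flip test and each sample left out. None held the GC or length correction, so the dependence of the ratios on these was not tested. With the GC correction MS4A1 itself was at −0.025 and CD22 at −0.11.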
